A study of Mus musculus with 9 samples.

Results

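The genes for 9 cell surface proteins of carcinomas were followed in 4T1 tumors treated with BI 853520, an inhibitor of focal adhesion kinase (FAK). They are Msln, Muc1, Epcam, Cd44, Cd24a, Ly6a, Prom1, Cd9 and Cd47. They were chosen by name with results of the BI 853520 against vehicle comparison known, so their values in that comparison are given as a description, with no p-value. Whether the fit across all genes called them is stated, and supports nothing about them. All 9 were found by gene identifier among the 18755 genes of the deposited count table, and all 9 were among the 13966 genes that passed the filter on low counts. 4T1 is a metastatic mammary carcinoma line of BALB/c mice with features of a partial epithelial-mesenchymal transition (EMT). Every tumor grew from 1000000 4T1 cells placed in mammary fat pad number 9 of a female BALB/c mouse aged 6 to 10 weeks. Dosing began on day 15 after injection and lasted 5 days, with 50 mg/kg BI 853520 by mouth each day in 0.5% Natrosol for 6 tumors (BI 4 to BI 9) or 0.5% Natrosol alone for 3 tumors (vehicle 1 to vehicle 3). A snap-frozen piece of each tumor was sequenced in bulk, so fewer cells of a type and less RNA per cell cannot be told apart. All tumors derive from 1 cell line, in a host with its own immune cells, vessels and fibroblasts.

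Mesothelin (Msln) is a glycosylphosphatidylinositol (GPI)-anchored protein of the mesothelial lining that many carcinomas also make, and it binds the mucin MUC16. MUC1 is a transmembrane mucin of the apical epithelial surface, and EpCAM is a homophilic adhesion protein of epithelia that is commonly lost in EMT. CD44 is the main hyaluronan receptor, CD24 is a small GPI-anchored sialoglycoprotein read by Siglec receptors, and CD47 binds SIRPα on phagocytes and restrains engulfment. CD9 is a tetraspanin that groups integrins and other partners in the membrane, prominin 1 (Prom1, CD133) sits in membrane protrusions, and Ly6a encodes Sca-1, a GPI-anchored Ly6 protein of progenitor cells, endothelium and lymphocytes. Cd44, Cd9, Cd47 and Ly6a are made by leukocytes and stroma as well as by carcinoma cells.

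The promoters shown are those of the epithelial genes Muc1 and Epcam, which were both lowly expressed in these tumors and stood highest in the same one. They are RefSeq sequences on GRCm38.p6, running from 250 bases before the transcription start to 50 bases after it. Muc1 lies at chr3:89228806-89229105 and Epcam at chr17:87635729-87636028, both on the plus strand. Capitals mark exact matches, on either strand, to a GC box (GGGCGG, bound by Sp1-type factors), a TATA box (TATAAA) or an E2-box (CACCTG, an element that EMT repressors of the Snail and ZEB families recognise).
Muc1: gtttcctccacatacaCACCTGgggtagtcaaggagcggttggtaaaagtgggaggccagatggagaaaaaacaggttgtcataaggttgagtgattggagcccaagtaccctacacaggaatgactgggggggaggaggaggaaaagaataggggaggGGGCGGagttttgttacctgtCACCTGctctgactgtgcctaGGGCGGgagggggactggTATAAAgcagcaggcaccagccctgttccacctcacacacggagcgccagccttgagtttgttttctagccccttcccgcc
Epcam: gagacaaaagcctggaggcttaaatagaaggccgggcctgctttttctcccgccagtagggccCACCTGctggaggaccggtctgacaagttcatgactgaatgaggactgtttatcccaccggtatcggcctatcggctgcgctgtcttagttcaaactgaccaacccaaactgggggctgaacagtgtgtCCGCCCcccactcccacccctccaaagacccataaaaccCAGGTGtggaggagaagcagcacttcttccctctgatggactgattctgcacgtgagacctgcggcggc
The Muc1 window held GC boxes at -91 and -49, a TATA box at -31 and E2-boxes at -234 and -70, where positions give the first base of the match counted from the transcription start. The Epcam window held 1 GC box at -58 and E2-boxes at -187 and -19, with no TATA box. Of 32851 promoter windows of the same length, 35.7% held a GC box, 13.6% a TATA box and 20.2% an E2-box. A window was at hand for 6 of the 9 genes, and for Msln, Cd24a and Ly6a none was used. Each of the 6 genes had a GC box in at least 1 window, and an E2-box was also found for Prom1 and Cd9. The AP-1 element TGANTCA, found in 7.81% of all windows, was present in windows of Prom1 alone among the 6. A match describes the letters only and no binding was measured.

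Total counts ranged from 16931607 to 33850245 per tumor and normalization factors from 0.984 to 1.02. Values below are read counts per 1000000 (CPM) on the normalized library sizes. Krt8 and Krt18, the simple keratins of the carcinoma cells, were at 347 to 528 CPM and 354 to 627 CPM over the 9 tumors. Markers of host cells moved with treatment. Summed macrophage markers were at 2818 to 3604 CPM in vehicle and 5056 to 6839 CPM with BI 853520, T and NK cell markers at 84.5 to 96.6 and 167 to 233 CPM, and neutrophil markers at 1103 to 1270 and 389 to 867 CPM. All 10 macrophage markers and 10 of 11 T and NK cell markers tested rose, 3 of 6 B cell markers rose, and 4 of 9 neutrophil markers fell, in the edgeR quasi-likelihood test across all genes (Benjamini-Hochberg adjusted p of at most 0.05). What these cells contribute to the levels of the 9 genes was not tested. These and the other gene lists below were also chosen with earlier results of these data known. Their counts and adjusted p-values are therefore given as descriptions. Over all genes tested 28.7% were called, 14.6% higher and 14.1% lower.

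Per kilobase of gene length the 9 genes spanned a wide range of levels. In vehicle, Cd9 had the highest level at 597 ± 42.2 CPM per kilobase (SD, n = 3), followed by Cd47 at 145 ± 7.04 and Cd44 at 104 ± 8.90. Ly6a was at 76.9 ± 26.8, Cd24a at 33.8 ± 7.88 and Msln at 27.1 ± 1.10 CPM per kilobase. The epithelial genes were far lower, with Muc1 at 1.12 ± 0.253, Epcam at 1.03 ± 0.293 and Prom1 at 0.0986 ± 0.0298 CPM per kilobase. The Cd44 level was 100.2 times that of Epcam. Over the vehicle tumors, the ranges of Cd44 and Ly6a, of Cd24a and Msln and of Muc1 and Epcam overlapped, and those of the other neighbours in this order did not. With BI 853520 the order was Cd9 (573 ± 59.6 CPM per kilobase, SD, n = 6), Cd47 (142 ± 10.1), Ly6a (132 ± 36.7), Cd44 (99.2 ± 4.47), Cd24a (24.9 ± 5.19), Msln (8.12 ± 1.34), Epcam (2.14 ± 1.44), Muc1 (1.15 ± 0.282) and Prom1 (0.192 ± 0.0538). Here the ranges of Ly6a overlapped those of both Cd47 and Cd44, Epcam overlapped Muc1, and Cd24a and Msln no longer overlapped. The gene lengths are those of the deposited table, which do not resolve splice forms such as those of Cd44. For Cd47 this length is 1914 bases, where GENCODE has 5277 exon bases, and for Cd44 it is 5652 against 6851. The place of Cd47 above Cd44 and Ly6a, and the overlaps among these genes, therefore depend on the length used.

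**Figure D1:**
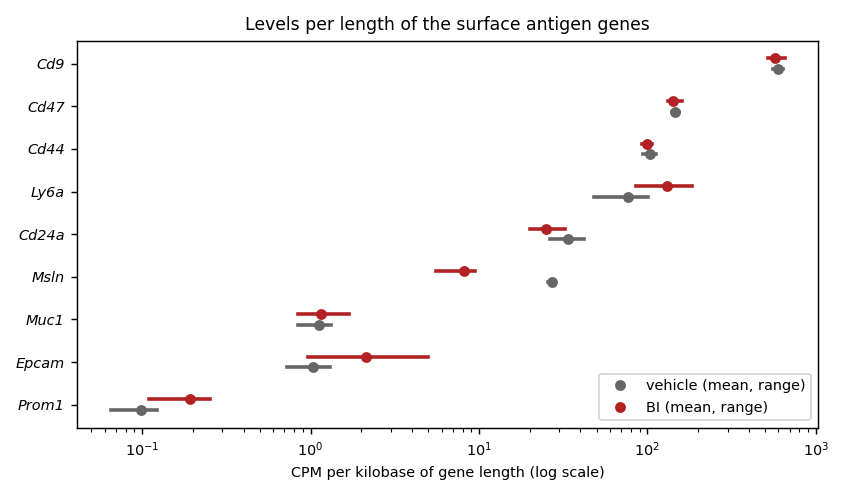
Level of each gene as CPM per kilobase of gene length on a log axis, with points at group means and bars from the lowest to the highest tumor (vehicle n = 3, BI n = 6). Cd9 stands at the top near 597 and Prom1 at the bottom near 0.0986 in vehicle, and the Msln bars of the 2 groups lie apart.

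In the fit across all genes, 2 of the 9 genes were called at an adjusted p of at most 0.05, Msln lower and Ly6a higher, and 7 were not, where 28.7% of all 13966 genes tested were called, 14.6% higher and 14.1% lower. For 1 of the 9, Msln, the vehicle and BI 853520 tumors did not overlap, against 28.1% of all genes tested. The median log2 fold change of the 9 genes was -0.03, and that of all genes tested was -0.0037. As the genes were chosen with this comparison known, nothing is read from these counts.

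Msln, on the minus strand at chr17:25885559-25891272 (mm9, GENCODE), had 58.3, 58.8 and 54.6 CPM in vehicle 1 to 3. In BI 4 to BI 9 it had 17.5, 11.8, 16.8, 18.3, 20.1 and 18.5 CPM. Every BI 853520 tumor was far below every vehicle tumor, and BI 5 was the lowest. The mean went from 57.2 ± 2.33 (SD, n = 3) to 17.2 ± 2.84 CPM (SD, n = 6), which leaves 30.0% of the vehicle level, a log2 fold change of -1.74 (SE 0.120). Of the 13966 genes tested, 17 had a lower log2 fold change, as had 7 of the 12186 with a mean log2 CPM of at least 1. The counts behind these values were 1272 to 1852 in vehicle and 227 to 408 with BI 853520, so counting error was 2.60% and 5.44% of the mean, below the observed variation between tumors of 4.06% and 16.5%. When tumors were dropped singly the value stayed between -1.78 and -1.65, and Msln was called in each of these 9 fits. As Msln was chosen with this comparison known, its rank and these calls support nothing about it.

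The keratins Krt18 and Krt8 were themselves lower with BI 853520: Krt18 had 579 ± 57.7 CPM in vehicle and 409 ± 58.3 with BI 853520 (log2 fold change -0.50, SE 0.111, edgeR adjusted p = 0.0064), and Krt8 478 ± 58.3 and 394 ± 38.4 (-0.28, SE 0.0949, adjusted p = 0.044). Krt19, Krt7, Krt5 and Krt14, at far lower levels, were not called (log2 fold change 0.15, 0.59, -0.21 and -0.85). Set against the sum of Krt8 and Krt18, Msln had 53.7, 50.9 and 58.7 counts per 1000 keratin counts in vehicle and 19.3, 12.7, 23.0, 25.3, 24.7 and 25.7 in BI 4 to BI 9. The groups remained apart on this scale, with a difference in mean log2 of -1.36. On it the differences of Cd44, Cd9, Cd47 and Muc1 were 0.34, 0.34, 0.37 and 0.43, that of Cd24a was -0.05, and those of Ly6a, Epcam and Prom1 were 1.19, 1.29 and 1.36. This scaling was chosen after the data were seen, and it assumes that keratin RNA follows the number of carcinoma cells. Of the mesothelial markers, Upk3b, Upk1b, Lrrn4, Gpm6a and Nkain4 were at or near 0 (at most 0.236 CPM in any tumor). Wt1 was detected in every tumor, at 2.28 to 2.98 CPM in vehicle and 1.30 to 3.83 CPM with BI 853520. The 7 mesothelial markers in the table summed to 50.6 to 58.6 CPM in vehicle and 40.7 to 53.9 CPM with BI 853520, of which Bnc1, a transcription factor also made by other epithelia, supplied 51.8 ± 4.60 and 45.9 ± 4.20 CPM. Neither of the 2 mesothelial markers tested was called by edgeR, DESeq2 or limma-voom, with 0 at an unadjusted edgeR p of at most 0.05 (Bnc1 -0.17, SE 0.0857, adjusted p = 0.15; Wt1 0.04, SE 0.298, adjusted p = 0.93). Whether mesothelial cells contribute to the Msln level was not tested.

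**Figure D2:**
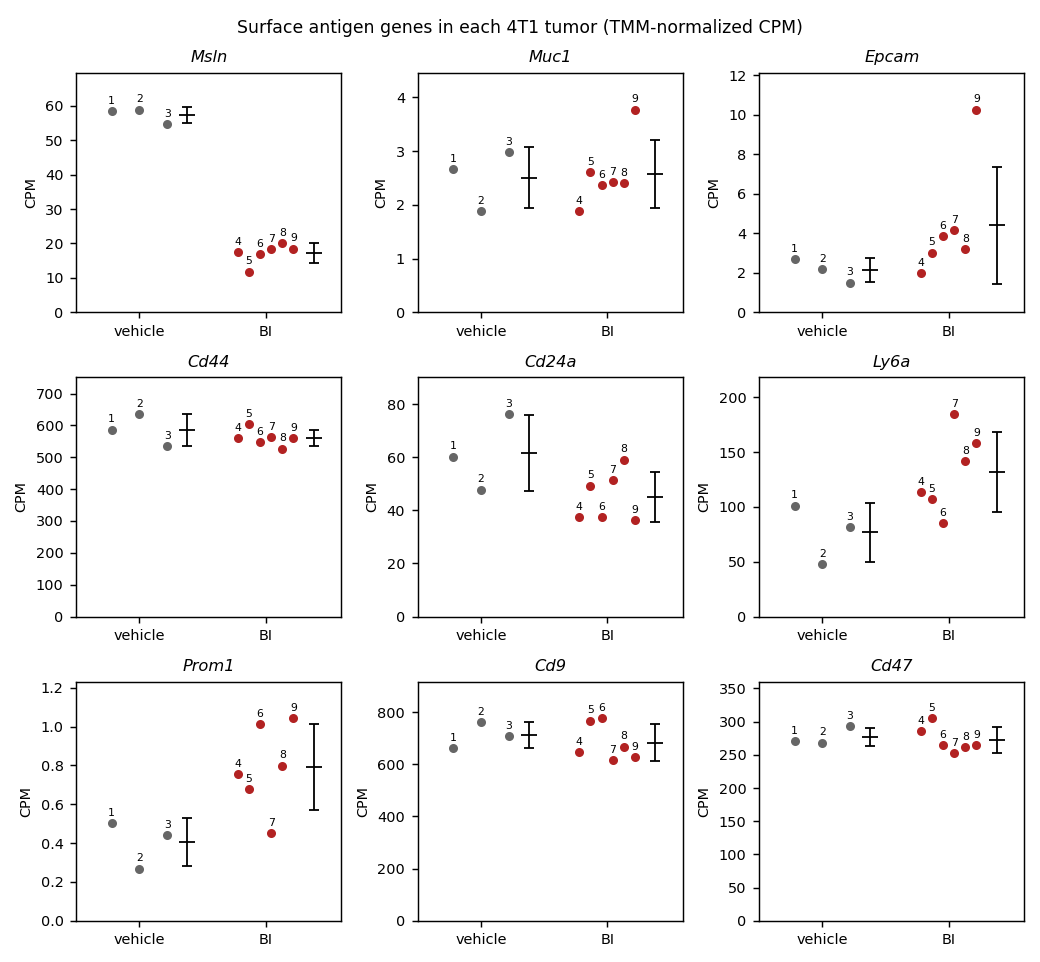
CPM of each of the 9 genes in every tumor, with tumor numbers above the points and the group mean ± SD as black bars (vehicle n = 3, BI n = 6; each vertical axis starts at 0). The Msln points of the groups are separate (54.6 to 58.8 against 11.8 to 20.1), and tumor BI 9 stands alone for Epcam at 10.3.

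Muc1 (chr3:89032979-89037303, plus strand) was low and similar in both groups. It had 2.66, 1.88 and 2.98 CPM in vehicle and 1.89, 2.61, 2.37, 2.43, 2.40 and 3.77 CPM in BI 4 to BI 9, on 40 to 101 counts. The groups overlapped and BI 9 was the highest. The log2 fold change was 0.03 (SE 0.232). Of 11 mucins and mesothelin partners in the table, 4 passed the filter and none was called by edgeR, DESeq2 or limma-voom, with 0 at an unadjusted edgeR p of at most 0.05 (median log2 fold change 0.05). Lgals3, a galectin that binds mucin sugars, was the most abundant at 461 ± 87.5 and 408 ± 60.6 CPM (-0.17, SE 0.132, adjusted p = 0.35). Mslnl, Muc5ac, Muc5b and Muc6 had at most 3 counts in any tumor, and Muc16, the partner of mesothelin, was not analysed here.

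Epcam (chr17:88035319-88050446, plus strand) was as low as Muc1 in vehicle but varied widely with BI 853520. It had 2.70, 2.19 and 1.50 CPM in vehicle and 1.98, 3.02, 3.86, 4.18, 3.20 and 10.3 CPM in BI 4 to BI 9. Of the 6 treated tumors, 5 were above all vehicle tumors, BI 4 was not, and BI 9 was far above any other. The mean went from 2.13 ± 0.603 to 4.42 ± 2.96 CPM, a log2 fold change of 1.06 (SE 0.450), which was not called in the all-gene fit. Without BI 9 the log2 fold change was 0.63. Without BI 4 it was 1.21 and was called.

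Some other epithelial genes, shown here because they too were highest in BI 9, are given next. Krt19, a simple keratin, had 8.63 to 11.4 CPM in vehicle, 6.94 to 8.96 in BI 4 to BI 8 and 23.7 in BI 9. Prlr, the prolactin receptor, had 2.09 to 3.30 CPM in vehicle, 2.08 to 7.68 in BI 4 to BI 8 and 18.1 in BI 9. Csn3, κ-casein, had 0.383 to 1.93 CPM in vehicle, 1.32 to 5.47 in BI 4 to BI 8 and 6.55 in BI 9. The main carcinoma keratins and E-cadherin did not share this pattern. Krt8 was lowest of all 9 tumors in BI 9 (347 CPM), Krt18 was at 371 CPM there against 354 to 486 CPM in BI 4 to BI 8, and Cdh1 was highest in BI 4 (36.7 CPM, against 25.7 in BI 9). The summed carcinoma epithelium markers of BI 9, at 967 CPM, were below those of every other tumor except BI 7 (949 CPM). Most of that sum was Krt8 and Krt18. On the mean log2 CPM of the same list, which weighs each marker equally, BI 9 was the highest of the 9 tumors at 3.04. Next was vehicle 1 at 2.60, and BI 4 was lowest at 2.03. The relations with cell type lists below use this mean. The summed markers of normal secretory mammary epithelium were at 5.45 to 8.85 CPM in vehicle and at 9.50, 19.2, 17.6, 13.7, 12.8 and 32.8 CPM in BI 4 to BI 9, and 4 of the 5 tested (Csn3, Prlr, Esr1, Elf5) rose in the edgeR test. Of these, Elf5 passed the filter on low counts only through the treated tumors. The milk genes Csn1s1, Csn2 and Wap were at or near 0 (at most 0.417 CPM in any tumor). Adipocyte markers summed to 57.0 to 78.9 CPM in vehicle, 82.8 to 159 CPM in BI 4 to BI 8 and 302.2 CPM in BI 9, and 2 of 8 rose. Over all genes tested 14.6% rose, and nothing is read from the secretory and adipocyte counts. Whether epithelium or fat of the host mammary gland in a tumor piece contributes to its Epcam level was not tested. The 5 genes most like Epcam over the 9 tumors, after subtraction of each group mean and among genes with a mean log2 CPM of at least 1, were Creld2, Mrps33, Shroom3, Krt19 and Rer1 (Pearson r of 0.96, 0.95, 0.94, 0.94 and 0.93).

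**Figure D3:**
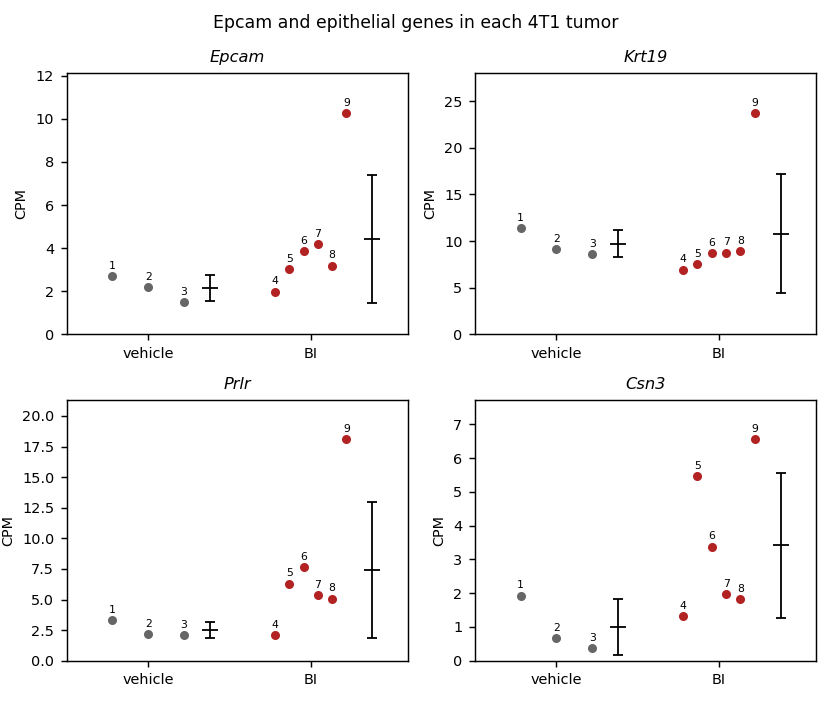
CPM of Epcam, Krt19, Prlr and Csn3 in every tumor, with tumor numbers and the group mean ± SD (vehicle n = 3, BI n = 6; axes start at 0). BI 9 is the highest tumor in each panel, at 10.3, 23.7, 18.1 and 6.55 CPM, and the genes were picked for this after their values were seen; Krt8, Krt18 and Cdh1 do not peak there.

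Of 17 carcinoma epithelium genes tested, 4 fell (Krt8, Krt18, Elf3 and Spint2) and 1 rose (St14), a share close to the 28.7% called over all genes, with a median log2 fold change of -0.14 by edgeR. Spint2, an inhibitor of membrane serine proteases, fell from 176 ± 6.54 to 132 ± 12.6 CPM (-0.41, SE 0.0772, adjusted p = 0.0023). St14, the protease matriptase, rose from 2.14 ± 0.343 to 4.71 ± 1.15 CPM (1.14, SE 0.233, adjusted p = 0.0039). The summed level of the list was 1215 to 1444 CPM in vehicle and 949 to 1199 CPM with BI 853520, most of it from Krt8 and Krt18.

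Cd44 (chr2:102651298-102741822, minus strand) had 587, 636 and 535 CPM in vehicle and 560, 605, 548, 564, 527 and 560 CPM in BI 4 to BI 9. The groups overlapped, with a log2 fold change of -0.06 (SE 0.0683). Of 20 genes for CD44 ligands, sheddases and splicing regulators, all tested, 3 rose (Mmp14, Adam10 and Cemip2) and 2 fell (Hmmr and Hyal2), with a median log2 fold change of -0.01. This share is close to the 28.7% called over all genes, and nothing is read from it. Mmp14, a membrane protease that can shed CD44, rose from 503 ± 41.8 to 736 ± 66.0 CPM (0.55, SE 0.0869, edgeR adjusted p = 0.00081). Hmmr, a hyaluronan-binding protein of the mitotic spindle, fell from 122 ± 19.7 to 80.5 ± 15.2 CPM (-0.60, SE 0.148, adjusted p = 0.011). Spp1, the CD44 ligand osteopontin, was the most abundant gene of the list at 4433 ± 1235 and 4167 ± 904 CPM (-0.09, SE 0.197, adjusted p = 0.77). Has2, a hyaluronan synthase, was at 11.4 ± 2.00 and 7.73 ± 2.27 CPM (-0.56, SE 0.219, adjusted p = 0.072). Esrp1, which directs epithelial splicing of Cd44, was at 0.477 ± 0.345 and 0.813 ± 0.476 CPM (adjusted p = 0.36).

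Cd24a (chr10:43298975-43304068, plus strand) had 60.2, 47.8 and 76.3 CPM in vehicle and 37.5, 49.3, 37.4, 51.4, 59.1 and 36.4 CPM in BI 4 to BI 9. In 3 of the treated tumors the level was below all vehicle tumors and 3 treated tumors overlapped them. The mean was 61.4 ± 14.3 and 45.2 ± 9.43 CPM, a log2 fold change of -0.45 (SE 0.171) that was not called. It was called without vehicle 2 (-0.60) or without BI 8 (-0.53), and was -0.26 without vehicle 3. Reads were kept only where they matched 1 place in the genome, so reads shared with Cd24a-related sequences elsewhere are not counted.

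Cd47 (chr16:49855731-49915123, plus strand) was among the steadiest of the 9 genes. It had 271, 269 and 293 CPM in vehicle and 286, 305, 265, 253, 262 and 265 CPM in BI 4 to BI 9, a log2 fold change of -0.03 (SE 0.0680) with overlapping groups. Its receptor gene Sirpa had 260, 230 and 222 CPM in vehicle and 392, 394, 352, 413, 358 and 413 CPM in BI 4 to BI 9. Every treated tumor was above every vehicle tumor, and Sirpa rose by a log2 fold change of 0.70 (SE 0.0760, edgeR adjusted p = 7.6e-05), as did the macrophage markers listed above. It was the only 1 of 9 CD47 and CD24 partners to pass in edgeR (median log2 fold change 0.22), where DESeq2 called 3 higher and limma-voom 2. Over all genes tested 28.7% were called by edgeR. Thbs1, thrombospondin 1, a ligand of CD47, was at 1694 ± 289 and 1402 ± 405 CPM (adjusted p = 0.38). Calr, the engulfment signal calreticulin, was at 726 ± 11.2 and 825 ± 45.2 CPM (0.18, SE 0.0651, adjusted p = 0.052). Siglecg, a receptor of CD24, was near 1 CPM in both groups (0.732 ± 0.241 and 1.03 ± 0.416, adjusted p = 0.36).

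Cd9 (chr6:125410284-125444809, minus strand) was the most abundant of the 9 genes. It had 663, 763 and 708 CPM in vehicle and 646, 767, 777, 616, 668 and 626 CPM in BI 4 to BI 9. Treated tumors lay on both sides of the vehicle range, and the log2 fold change was -0.06 (SE 0.0899). An annotated noncoding transcript, Gm16749, overlaps its exons on the other strand, and whether counting used the strand is not given in the sources used here. The direct CD9 partners Ptgfrn and Igsf8 did not pass (-0.08, SE 0.0580, adjusted p = 0.35, and 0.14, SE 0.111, adjusted p = 0.37), and neither did the tetraspanin Cd81 (0.03, SE 0.0754, adjusted p = 0.82).

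Of 29 tetraspanins and CD9 partners tested, 7 rose and 4 fell, with a median log2 fold change of 0.14. Over all genes tested 14.6% rose and 14.1% fell, and nothing is read from these counts. The 4 that fell were Hbegf, Itga3, Itga6 and Cd63. Hbegf, an EGF receptor ligand held in the membrane with CD9, fell from 43.3 ± 2.69 to 18.7 ± 2.90 CPM (-1.22, SE 0.110, edgeR adjusted p = 3.4e-05). The laminin-binding integrin chain Itga3 fell from 623 ± 55.9 to 333 ± 37.3 CPM (-0.90, SE 0.0931, adjusted p = 5.7e-05) and Itga6 from 421 ± 42.4 to 272 ± 24.1 CPM (-0.63, SE 0.0849, adjusted p = 0.00030), while their partner chain Itgb1 did not pass (914 ± 19.5 and 897 ± 40.1 CPM, adjusted p = 0.78). Cd63, a tetraspanin of late endosomes and the most abundant of the list per length, fell from 360 ± 27.3 to 302 ± 13.6 CPM (-0.25, SE 0.0633, adjusted p = 0.012). The 7 that rose were Cd53, Cd82, Cd37, Tspan14, Tspan15, Tspan17 and Tspan33. Cd53, a leukocyte tetraspanin, rose from 210 ± 9.58 to 264 ± 22.7 CPM (0.33, SE 0.0758, adjusted p = 0.0074).

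Ly6a (chr15:74825308-74828064, minus strand) had 101, 48.2 and 81.7 CPM in vehicle and 114, 107, 85.2, 185, 142 and 158 CPM in BI 4 to BI 9. Of the 6 treated tumors, 5 were above all vehicle tumors and BI 6 was not. The mean was 77.1 ± 26.8 and 132 ± 36.7 CPM, a log2 fold change of 0.77 (SE 0.254) that was called in the all-gene fit. The call was lost without vehicle 2 (0.53), vehicle 3 (0.82), BI 7 (0.65), BI 8 (0.76) or BI 9 (0.72), and kept in the other 4 fits that left out 1 tumor. Ly6 genes resemble each other in sequence, and reads shared between them are not counted.

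Of 11 other Ly6 and uPAR family genes tested, 6 rose (Ly6e, Ly6c2, Ly6i, Ly6g6e, Lynx1 and Gpihbp1) and 1 fell (Plaur), with a median log2 fold change of 0.65. Over all genes tested 14.6% rose and 14.1% fell, and nothing is read from the family count. Ly6e, the most abundant, had 299, 178 and 259 CPM in vehicle and 496, 373, 374, 605, 484 and 544 CPM in BI 4 to BI 9. Every treated tumor was above every vehicle tumor, and Ly6a and Ly6e were both lowest in vehicle 2 and highest in BI 7 (Ly6e 0.97, SE 0.184, edgeR adjusted p = 0.0025). Ly6c2, a marker of inflammatory monocytes, rose from 4.76 ± 2.20 to 8.72 ± 2.71 CPM (0.88, SE 0.307, adjusted p = 0.0499), and Ly6c1 was at 32.5 ± 10.8 and 41.0 ± 10.6 CPM (adjusted p = 0.32). Plaur, the urokinase receptor, fell from 97.0 ± 10.4 to 74.0 ± 13.0 CPM (-0.39, SE 0.128, adjusted p = 0.039). Ly6a and Ly6e can be induced by interferon. Of 16 interferon response genes 2 rose and none fell in edgeR or DESeq2 (1 fell at an unadjusted edgeR p), with a median log2 fold change of 0.04 and a summed level of 1418 to 1775 CPM in vehicle and 1540 to 1966 CPM with BI 853520. Nothing is read from this count either, beside the 14.6% of all genes tested that rose. Whether interferon contributes to the levels of Ly6a and Ly6e was not tested.

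Prom1 (chr5:44384864-44493271, minus strand) was at the limit of what this depth measures, with 6 to 15 counts per vehicle tumor and 10 to 21 per treated tumor. It had 0.504, 0.268 and 0.442 CPM in vehicle and 0.756, 0.678, 1.01, 0.450, 0.799 and 1.04 CPM in BI 4 to BI 9. Of the 6 treated tumors, 5 were above all vehicle tumors and BI 7 was not. The log2 fold change was 0.94 (SE 0.348) and was not called, except without BI 7 (1.06). The observed variation between tumors, 30.2% of the mean in vehicle and 28.0% with BI 853520, was about that of counting alone, 30.6% and 25.5%. The gene model Gm16401 overlaps its exons on the other strand.

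Of 14 prominin and progenitor markers tested, 6 rose (Aldh1a3, Aldh1a1, Kit, Abcg2, Thy1 and Cd34) and none fell in edgeR, with a median log2 fold change of 0.41. Over all genes tested 14.6% rose and 14.1% fell, and nothing is read from the list counts of this paragraph. At an unadjusted edgeR p 2 fell, and DESeq2 and limma-voom each called 1 lower. Several of the 6 are also markers of other cells, Thy1 of fibroblasts and T cells and Cd34 of vessels. Aldh1a3, a retinaldehyde dehydrogenase, had 2, 1 and 3 counts in vehicle 1 to 3 and 11, 23, 15, 32, 30 and 36 counts in BI 4 to BI 9. It passed the filter on low counts only through the treated tumors, so nothing is read from its call. Thy1 rose from 97.3 ± 12.3 to 139 ± 21.7 CPM (0.51, SE 0.127, adjusted p = 0.012). Prom2, the other prominin, was at 0.552 ± 0.239 and 1.28 ± 0.693 CPM (adjusted p = 0.12). Fibroblast markers summed to 2000 to 3436 CPM in vehicle and 2647 to 5880 CPM with BI 853520 (2 of 10 rose), and endothelial markers to 214 to 241 and 239 to 339 CPM (4 of 10 rose).

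Genes for 32 other surface antigens of carcinomas were set beside the 9. Of 28 tested, 10 fell and 1 rose, with a median log2 fold change of -0.24, against -0.0037 over all genes tested. Over all genes tested 14.1% fell and 14.6% rose. As this list too was chosen with earlier results of these data known, nothing is read from these counts or from the median. The 10 were Gpnmb, Met, Cdh17, Epha2, Nectin2, Tfrc, Axl, Bsg, Erbb2 and Mfge8. Met, the receptor of hepatocyte growth factor, had 168, 143 and 152 CPM in vehicle and 67.9, 77.6, 59.6, 76.2, 75.8 and 81.7 CPM in BI 4 to BI 9. All treated tumors were below all vehicle tumors (-1.08, SE 0.0889, edgeR adjusted p = 1.9e-05). Gpnmb, a transmembrane glycoprotein made by tumor cells and macrophages, had 52.3, 72.6 and 76.5 CPM in vehicle and 20.2, 23.7, 29.4, 23.2, 29.5 and 17.6 CPM in BI 4 to BI 9 (-1.49, SE 0.157, adjusted p = 6.5e-05). The receptor tyrosine kinases Epha2 and Axl fell by 1.03 and 0.47 on the log2 scale (SE 0.160 and 0.0664, adjusted p = 0.00073 and 0.00037) and Erbb2 fell by 0.31 (SE 0.0691, adjusted p = 0.0069). Bsg (CD147), the most abundant of the list per length, fell from 659 ± 64.0 to 511 ± 28.0 CPM (-0.37, SE 0.0730, adjusted p = 0.0033). Nectin4, a cell adhesion protein, was the 1 gene that rose, from 3.58 ± 0.0872 to 6.81 ± 1.04 CPM (0.93, SE 0.154, adjusted p = 0.0011). The summed level of the list was 4345 to 4566 CPM in vehicle and 3328 to 4041 CPM with BI 853520.

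**Figure D4:**
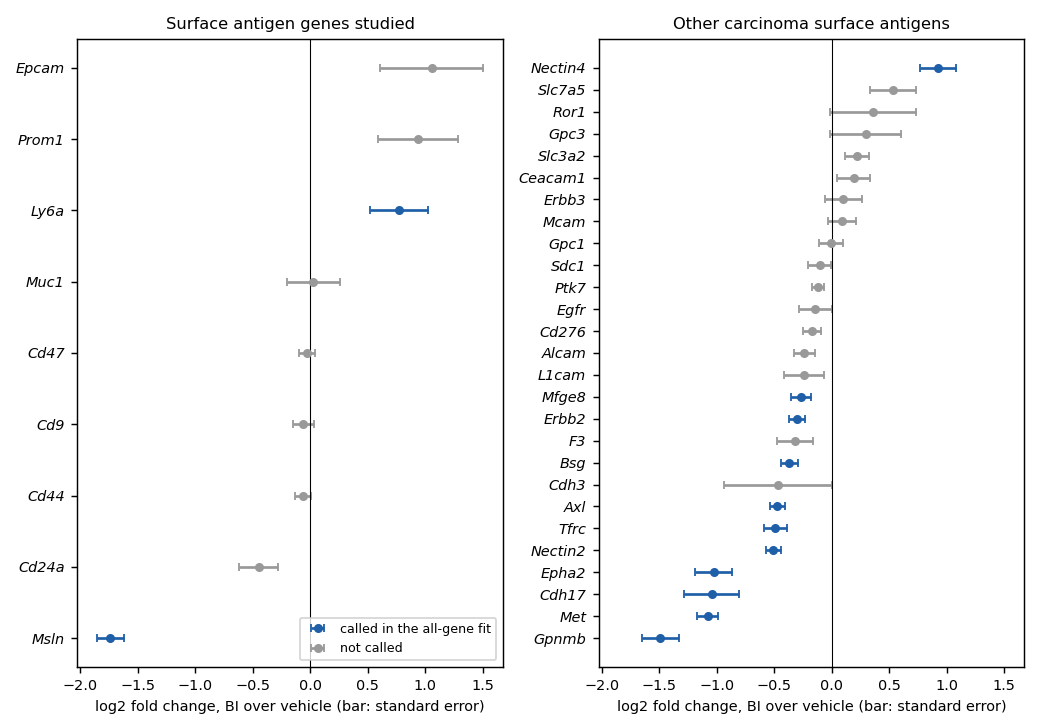
Log2 fold change of BI 853520 over vehicle with its standard error (3 vehicle and 6 BI tumors), for the 9 genes on the left and 27 of the 28 other carcinoma surface antigens tested on the right. Blue points were called at an adjusted p of at most 0.05 in the fit across all genes: Msln and Ly6a on the left, and 10 lower and 1 higher (Nectin4) on the right.

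How the 9 genes vary together among the 6 BI 853520 tumors was not used to choose them, although the spread of each gene there enters its standard error above. Relations within this group were therefore tested. Over the 36 pairs of the 9 genes, none passed after Benjamini-Hochberg adjustment of exact permutation p-values (smallest adjusted p = 0.35) while 4 reached 0.05 before adjustment (two-sided). Ly6a and Cd9 had a Pearson r of -0.87 (exact permutation p = 0.0208) and a Spearman rho of -0.94 (exact permutation p = 0.0167), and r was -0.70 without BI 6 and BI 7. Muc1 and Epcam had an r of 0.95 (exact permutation p = 0.0278) and a rho of 0.60 (exact permutation p = 0.242). Without BI 4 and BI 9 their r was -0.61, so the relation rests on those tumors. Msln and Cd44 had an r of -0.90 (exact permutation p = 0.0292) and a rho of -0.60 (exact permutation p = 0.242), but r was 0.85 without BI 5 and BI 8, so it rests on those tumors. Msln and Cd47 had an r of -0.84 (exact permutation p = 0.0403) and a rho of -0.77 (exact permutation p = 0.103), and r was -0.41 without BI 5 and BI 8.

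The 9 genes were also set against the mean log2 CPM of 6 cell type lists in the same tumors. None of the 54 relations passed after adjustment (smallest adjusted p = 0.075) while 5 reached 0.05 before adjustment. Cd44 followed the endothelial list with an r of 0.90 (exact permutation p = 0.00139, the smallest that the 720 orders can give) and a rho of 1 (exact permutation p = 0.00278), and r was 1.00 over the other 4 tumors without BI 5 and BI 8. Cd9 had an r of -0.87 with the fibroblast list (exact permutation p = 0.00417; rho -0.94, exact permutation p = 0.0167; r -0.72 without BI 5 and BI 6). Ly6a had an r of 0.80 with the fibroblast list (exact permutation p = 0.05; rho 0.89, exact permutation p = 0.0333; r 0.68 without BI 6 and BI 7). Muc1 had an r of 0.99 with the carcinoma epithelium list (exact permutation p = 0.0111; rho 0.83, exact permutation p = 0.0583) and Epcam an r of 0.96 (exact permutation p = 0.0292; rho 0.54, exact permutation p = 0.297). Without BI 4 and BI 9 these were 0.48 and -0.86, so both rest on those tumors. Msln had an r of -0.64 with the endothelial list (exact permutation p = 0.16; rho -0.60, exact permutation p = 0.242), which turned to 0.85 without BI 5 and BI 8. With the macrophage list its r was -0.49 (exact permutation p = 0.326; rho -0.71, exact permutation p = 0.136), and -0.50 without BI 5 and BI 8.

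The genes most like Msln over all 9 tumors, among 12185 others with a mean log2 CPM of at least 1, were Kctd10, Prkg2, Ipo5, Car5b and Ctnnal1 (Pearson r of 0.98 to 0.99). This ranking follows the same vehicle to BI 853520 difference by which Msln was chosen, so the direction of these 5 genes is set by it and is given without a test. The log2 fold change was -0.79 (SE 0.0704) for Prkg2, a cGMP-dependent kinase, and -0.76 (SE 0.0716) for Ctnnal1, an α-catenin relative. After subtraction of each group mean the 5 were others, Med28, Zc3h18, Nudcd2, Nop9 and Tbcb (r of 0.95 to 0.99). Of these, Nudcd2 fell by 0.32 (SE 0.0710, adjusted p = 0.0063), and the other 4 were not called. These likenesses are descriptions over 9 tumors that share the library depth and cell mixture of each piece.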

How the data were processed

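RNA of 3 vehicle and 6 BI 853520 tumors was sequenced by the authors with a stranded mRNA kit as paired-end reads. Per the study's methods, STAR aligned the reads to mm9, keeping unique hits only, and QuasR counted reads that start in a RefSeq exon. The deposited table holds these raw read counts for 18755 genes, with a gene length whose definition is not given in the sources used here. Each label names 1 tumor, and the edgeR p-values set the group difference against the spread between these tumors. Per the study, tumors entered only if their RNA quality was sufficient. Counts were normalized by TMM in edgeR 4.0.16 (R 4.3.3), filtered with filterByExpr (minimum count 10, minimum total 15), and all 9 tumors were fitted by the quasi-likelihood F test without covariates, with Benjamini-Hochberg adjustment over 13966 genes. A gene near 0 in vehicle could pass this filter through the treated tumors alone, as did Aldh1a3, Aldh1a1, Elf5 and Ly6g6e. Standard errors are on the log2 scale, and CPM on TMM library sizes carry no prior count. Within-group relations used log2 CPM with a prior count of 2 and exact permutation tests. Counting error limits precision at low counts and covers the counting step only.

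The 9 genes and the gene lists were chosen with earlier results of these data known. Of 265 list entries, 8 were not matched in the table and were not analysed here. One list gene is not reported by name here. The text names all 9 genes, the called gene of smallest p in each direction and the most abundant gene per length of the lists around the 9 genes, partners listed by role, and for Msln and Epcam the 5 genes most like them; other list genes were named after their values were seen. Gene positions are those of GENCODE on mm9, and promoters those of RefSeq on GRCm38.p6. Alternatives were RLE and library size scaling, other filters, DESeq2 1.42.0, limma-voom (limma 3.58.1), the study's thresholds and leaving out each tumor. The scripts were tested on simulated data.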

Additional observations from a re-analysis of the deposited data

Results flagged for a closer look

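Among 27 groups of 6 BI 853520 values (the 9 genes and 18 list sums), 2 had 1 tumor far from the others by Dixon's criterion (critical value 0.625), and chance flags about 1 in 20 groups. Epcam in BI 9 was at 10.3 CPM, with the next tumor at 4.18 CPM and a gap of 0.734 of the range. The summed adipocyte markers in BI 9 were at 302.2 CPM, with the next tumor at 159 CPM and a gap of 0.655 of the range. Both values come from the same tumor, which had the lowest total count of the 9, at 16931607.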

How the results depend on the processing

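All 9 genes kept their side of the threshold under RLE scaling, library size scaling, no filter and limma-voom. Under a filter of 1 CPM in 3 tumors Prom1 dropped out and the other 8 kept theirs. DESeq2 called 2 of the 9 genes higher (Ly6a and Epcam) and 2 lower (Msln and Cd24a), and over all genes 2286 higher and 2144 lower. At the study's thresholds (unadjusted p with a minimum fold change), 3 of the 9 were called higher and 1 lower. Over all genes 1339 were higher and 499 lower, against 2040 and 1973. Dropping tumors singly gave 0 to 2 of the 9 genes higher and 1 to 2 lower, and over all genes 1332 to 2026 higher and 1172 to 1980 lower. The calls over all genes fell most without vehicle 3, the deepest library. Scaling to Krt8 plus Krt18, added after the data were seen, moved 7 of the 9 log2 fold changes by more than the spread between tumors, as given above. With all 9 tumors and group means subtracted, 1 of the 54 relations with cell type lists passed, and none of the 36 pairs did. The relation that passed was Muc1 with carcinoma epithelium (r = 0.95, permutation adjusted p = 0.0335). The random orders here ran over all 9 tumors without regard to group, although group means had been subtracted. This p-value can therefore be too small. Within the BI 853520 tumors alone this relation rested on the tumors named with it above. Every relation named above as reaching 0.05 before adjustment had a weaker r in this setting, that of Muc1 included. Cd44 with the endothelial list had 0.72, Cd9 and Ly6a with the fibroblast list -0.67 and 0.56, and Msln with Cd44 -0.46. Ly6a with Cd9 changed little, at -0.86. Why these values moved was not tested. No paired analysis was made, as the labels give no pairing of vehicle with BI 853520 tumors. Depth limits Prom1 most.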
